A study of Rattus norvegicus with 9 samples.

Results

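The genes of arginine uptake and nitric oxide synthesis were followed in rat hearts after coronary ligation, with and without calycosin. The set was named as 7 genes, namely Slc7a2, Gch1, Ass1, Nos2, Nos3, Arg1 and Arg2, each kept where 1 of 2 deposited tables of changed genes listed it. There were 6 members of 5760 genes listed in either table, and Arg2 was not analysed here. All 6 stood among the 4288 genes of the table that compared calycosin with the model, and Slc7a2, Gch1 and Nos2 also stood among the 2458 genes of the table with the control hearts.

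RNA was sequenced from the hearts of male Sprague Dawley rats in 3 groups of 3 libraries. Control rats had sham surgery without ligation and were given distilled water by mouth as vehicle. Model rats had the left anterior descending coronary artery ligated, which led to heart failure, and were given the same vehicle. Cal rats had the same ligation and received calycosin, an isoflavone from Astragalus root, at 80 mg/kg per day by mouth. Treatment began 24 h after surgery and lasted 28 days. For sequencing, 3 animals of each group were drawn at random, and the libraries were of cardiac tissue. The paper's methods do not state which region of the heart was sampled. The rats' age was not given in the sources used here.

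The headings of the tables conflicted, and every direction depends on which heading is right. Each table gives, beside the single libraries, a mean per group. Where calycosin was compared with the model, the mean labelled Cal was the average of the libraries labelled Model for 4288 of 4288 genes, and the mean labelled Model was that of the libraries labelled Cal. In the other table the libraries were labelled Cal and Con, and the mean labelled Model was the average of the Cal libraries for 2458 of 2458 genes. Libraries are therefore named here by the heading of their own sample columns, Con, Cal or Model. Under the headings of the mean columns, the libraries named Cal here would be the model hearts and those named Model here would be the calycosin hearts, so each Cal against Model difference would turn round and each Cal against Con difference would be one of model against control. The deposited name of the table with the control hearts sets Model against Con, as its mean columns do. The name of the other sets Cal against Model, which fits either reading. The libraries headed Cal had the same reads in both tables for 986 of 986 shared genes.

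Nitric oxide is made from arginine, and a cell needs several proteins to keep its synthesis going. Slc7a2 encodes CAT2, a cationic amino acid transporter that carries arginine into the cell and is known from activated macrophages. Gch1 encodes GTP cyclohydrolase, the rate-limiting enzyme of the synthesis of tetrahydrobiopterin, the cofactor that nitric oxide synthases need. Nos2 encodes the inducible synthase, which inflammatory signals switch on, and Nos3 the endothelial synthase, which keeps vessels relaxed. Ass1 encodes argininosuccinate synthase, which starts the rebuilding of arginine from the citrulline that the synthases release. Arg1 encodes arginase, which splits arginine to ornithine and urea and so competes with the synthases for it.

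RefSeq promoters of the rat build GRCr8 were matched for 3 of the 6 members. They are shown because Gch1 and Ass1 were higher in one group and Nos3 in the other, so that their upstream sequences can be read side by side. The window was the 250 bases before the start, at chr15:22917413-22917662 on the minus strand for Gch1, chr3:35149480-35149729 on the plus strand for Ass1 and chr4:11706582-11706831 on the minus strand for Nos3. Each runs 5′ to 3′ on the gene's strand, and capitals mark the motif matches.
Gch1: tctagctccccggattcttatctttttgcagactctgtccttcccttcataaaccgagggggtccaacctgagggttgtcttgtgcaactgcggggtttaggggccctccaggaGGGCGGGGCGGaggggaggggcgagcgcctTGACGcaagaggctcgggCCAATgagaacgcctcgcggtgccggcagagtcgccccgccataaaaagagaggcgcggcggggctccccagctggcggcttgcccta
Ass1: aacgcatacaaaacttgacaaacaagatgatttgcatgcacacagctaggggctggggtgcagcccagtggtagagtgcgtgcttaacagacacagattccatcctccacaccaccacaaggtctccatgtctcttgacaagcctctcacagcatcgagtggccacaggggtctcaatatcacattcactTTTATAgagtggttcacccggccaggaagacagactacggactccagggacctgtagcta
Nos3: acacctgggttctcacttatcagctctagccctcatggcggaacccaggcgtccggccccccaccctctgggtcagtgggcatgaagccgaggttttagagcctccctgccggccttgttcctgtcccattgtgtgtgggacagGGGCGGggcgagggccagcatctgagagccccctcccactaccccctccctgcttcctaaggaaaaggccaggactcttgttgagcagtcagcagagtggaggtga

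Motifs were searched on both strands, and a match describes letters only. The Gch1 window held GGGCGG, the GC box, at 136 to 131 and at 131 to 126 bases before the start, a pair that shares 1 base. It also held TGACG, part of a cyclic AMP response element, at 106 to 102 bases and CCAAT at 88 to 84 bases. The Ass1 window held TATAAA on its other strand, printed as TTTATA, at 60 to 55 bases. The Nos3 window held 1 GGGCGG, at 106 to 101 bases. Of 33469 rat promoters of the same length, 30.5% held GGGCGG, 34.0% CCAAT, 12.9% TATAAA and 18.2% TGACG. The interferon element TTCNNNGAA, in 7.67% of all, and the AP-1 site TGANTCA, in 6.34%, were in none of these 3 windows. The share of G and C was 64.4% for Gch1, 62.4% for Nos3 and 51.2% for Ass1.

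Values are normalized counts, the authors' read counts divided by the library's size factor. The log2 fold change is taken on log2(normalized count + 1), Cal over the other group, with its standard error from limma. A gene was called at an adjusted p under 0.05 with a log2 fold change beyond 1. Because the listing used the same contrasts, member values are descriptions and carry no p. The rule's own threshold was the authors' adjusted p of 0.05, and genes outside it were not used here. The tables hold mouse gene identifiers, and the mouse coordinates below are those of the deposited annotation, with no build named in the tables.

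In the Cal and Model table the transporter, the inducible synthase, the cofactor enzyme, the recycling enzyme and arginase were all higher in the libraries headed Model, and the endothelial synthase was higher in those headed Cal. The 3 libraries of one group stood wholly above the 3 of the other for 6 of 6 members, and 98.2% of all listed genes did the same. The adjusted p alone was under 0.05 for 99.6% of them, as the listing fixes. By the call rule 4 of 6 members were called, against 60.1% of all listed genes, and nothing is read from that count. Of these, Slc7a2, Nos2 and Arg1 were higher in Model, where 31.6% of listed genes were called, and Nos3 was higher in Cal, where 28.4% were. The median log2 fold change was -1.70 over the 6 members and -0.52 over all 4288 genes.

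Slc7a2 (ENSMUSG00000031596, mouse chr8:40862396-40922308, plus strand) showed the widest difference of the set. Its normalized counts were 1938, 2978 and 1880.5 in Model libraries 1, 2 and 3 and 109.8, 157 and 178 in Cal libraries 1, 2 and 3. Every Model library stood far above every Cal library. The means were 2266 ± 618 (SD, n = 3) in Model and 148 ± 35.1 (SD, n = 3) in Cal, 15.3-fold apart, with a log2 fold change of -3.92 (SE 0.25). Only 80 of the 4288 listed genes, or 1.87%, had a lower log2 fold change than this arginine transporter. In tissue RNA, fewer cells of a type and less RNA per cell cannot be told apart.

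Nos2 (ENSMUSG00000020826, mouse chr11:78920787-78960254, plus strand), the inducible synthase, differed in the same direction. Model libraries 1, 2 and 3 held 974, 1366 and 842 normalized counts and Cal libraries 1, 2 and 3 held 213, 186 and 180.2. The Cal libraries lay close together and the groups did not overlap. The means of 1060.5 ± 273 in Model and 193 ± 17.6 in Cal (SD, n = 3 each) were 5.49-fold apart, a log2 fold change of -2.43 (SE 0.20).

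Nos3 (ENSMUSG00000028978, mouse chr5:24364810-24384474, plus strand), the endothelial synthase, was the single member higher in the libraries headed Cal. It had 612, 595 and 585 normalized counts in Cal libraries 1, 2 and 3 and 140.4, 112 and 205 in Model libraries 1, 2 and 3. The Cal libraries were nearly level, while the highest Model library, number 3, still stood well below them. The means were 597 ± 13.4 in Cal and 153 ± 47.6 in Model (SD, n = 3 each), 3.91-fold apart, with a log2 fold change of 2.01 (SE 0.23).

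**Figure D1:**
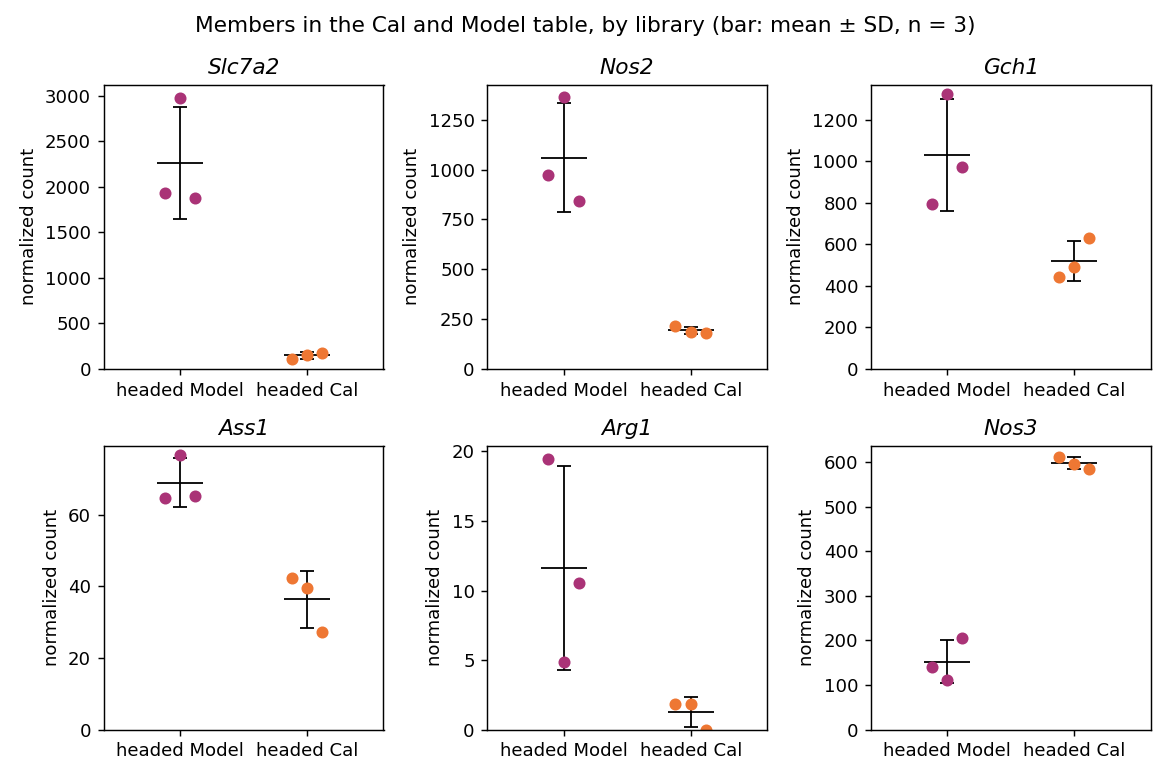
Normalized counts (y axis, linear from 0, its own range in each panel) of the 6 members in each library of the Cal and Model table, libraries grouped by the heading of their sample columns on the x axis. Points are libraries and bars the mean ± SD of 3. Slc7a2 runs from 1880.5 to 2978 in Model and from 109.8 to 178 in Cal, while Nos3 runs from 585 to 612 in Cal and from 112 to 205 in Model.

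Per kilobase of gene length, the balance of the synthases differed between the groups. The lengths are those of the mouse annotation while the reads come from rat, so levels compare only roughly between genes. In Model, Nos2 stood at 240.4 normalized counts per kilobase and Nos3 at 36.9. In Cal, Nos2 stood at 43.8 and Nos3 at 144.5 per kilobase. The ratio of Nos2 to Nos3 per length was 6.50, 11.4 and 3.84 in Model libraries 1, 2 and 3 and 0.326, 0.292 and 0.288 in Cal libraries 1, 2 and 3. Nos2 thus had more counts per kilobase than Nos3 in each Model library, and Nos3 more than Nos2 in each Cal library. The mean ratios were 7.25 ± 3.83 in Model and 0.302 ± 0.0208 in Cal (SD, n = 3 each). A ratio inside a library does not change with that library's size factor.

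Gch1 (ENSMUSG00000037580, mouse chr14:47153895-47189413, minus strand), which limits the supply of tetrahydrobiopterin, was also higher in Model. Model libraries 1, 2 and 3 held 795, 1323 and 974 normalized counts and Cal libraries 1, 2 and 3 held 443, 489 and 629. Model library 2 was the highest, as it was for Slc7a2 and Nos2, and the groups were separated by the gap between 629 and 795. The means of 1031 ± 269 and 520.1 ± 96.7 (SD, n = 3 each) were 1.98-fold apart, a log2 fold change of -0.97 (SE 0.22), just short of the call limit. Per kilobase Gch1 stood at 165 in Model and 83.2 in Cal.

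Ass1 (ENSMUSG00000076441, mouse chr2:31470207-31520672, plus strand), of the citrulline recycling step, was low in all libraries. Its normalized counts were 64.8, 76.8 and 65.2 in Model libraries 1, 2 and 3 and 42.4, 39.4 and 27.3 in Cal libraries 1, 2 and 3, from 32 to 68 reads each. The groups did not overlap. The means of 68.9 ± 6.84 in Model and 36.4 ± 7.99 in Cal (SD, n = 3 each) were 1.89-fold apart, with a log2 fold change of -0.92 (SE 0.25), also just short of the limit, and -1.17, past it, under quantile normalization. The table also lists Gm5424 (ENSMUSG00000046687, mouse chr10:62071123-62072362), a processed pseudogene that resembles Ass1. Reads could be split between them, so the Ass1 level is uncertain. Gm5424 had 56.5 normalized counts in Model and 27.6 in Cal, a log2 fold change of -0.98 (SE 0.31).

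Arg1 (ENSMUSG00000019987, mouse chr10:24915221-24927484, minus strand), the arginase that competes for the same substrate, was near the limit of detection. It had 19.4, 4.88 and 10.5 normalized counts in Model libraries 1, 2 and 3 and 1.84, 1.88 and 0 in Cal libraries 1, 2 and 3. These rest on 33 reads in Model and 4 in Cal. The ratio of Model to Cal, allowing for the size factors, was 9.82 with a 95% Clopper-Pearson interval of 3.49 to 38.2, which covers counting error only. The means of 11.6 ± 7.34 and 1.24 ± 1.07 (SD, n = 3 each) gave a log2 fold change of -2.47 (SE 0.64), and this value moved from -3.80 to -0.89 as the added constant went from 0.1 to 10. Arg1 was the member whose mean did not reach 10, and the other 5 did.

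The order of the members per kilobase rests on mouse gene lengths and is rough. Within the libraries headed Model, Slc7a2 at 248 and Nos2 at 240.4 lay within their spread of each other (SD 67.6 and 61.8). Gch1 followed at 165 (SD 43.0). Nos3 at 36.9 and Ass1 at 28.6 were lower, and Arg1 at 5.22 was the lowest. Within those headed Cal the order was led by Nos3 at 144.5 per kilobase, ahead of Gch1 at 83.2 and Nos2 at 43.8. Slc7a2 at 16.2 and Ass1 at 15.1 per kilobase lay within their spread (SD 3.85 and 3.31), above Arg1 at 0.557.

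The Cal and Con table listed the transporter, the cofactor enzyme and the inducible synthase. Its libraries headed Cal are the same as above, so the comparisons share them and are not independent. By the same rule 1 of 3 members was called, Gch1, higher in Cal, where 18.0% of the 2458 genes were called so and 29.0% in either direction, and nothing is read from that count. The groups did not overlap for 3 of 3 members, as for 97.4% of listed genes, of which 99.8% had an adjusted p under 0.05. The median log2 fold change was 0.91 for the members and 0.37 for all genes.

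Gch1 had 495, 548 and 701 normalized counts in Cal libraries 1, 2 and 3 and 189, 215 and 188 in Con libraries 1, 2 and 3. The Con libraries were level and each was far below every Cal library. The means of 581 ± 107 and 197.5 ± 15.2 (SD, n = 3 each) were 2.94-fold apart, with a log2 fold change of 1.54 (SE 0.15).

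Slc7a2 had 123, 176 and 199 normalized counts in Cal libraries 1, 2 and 3 and 104, 59.9 and 101 in Con libraries 1, 2 and 3. The lowest Cal library lay just above the highest Con library. The means of 166 ± 39.1 and 88.5 ± 24.8 (SD, n = 3 each) gave a log2 fold change of 0.91 (SE 0.27). Leaving out Cal library 1, Con library 1 or Con library 3 brought Slc7a2 past the call limit, for 2 of 3 members called. Over all 6 libraries left out in turn its log2 fold change ranged from 0.66 to 1.11. Under quantile, median-ratio, edgeR TMM and DESeq2 scaling it was 0.83, 0.63, 0.67 and 0.62, not called under any of them.

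Nos2 was the member higher in Con. It had 238, 208 and 200.9 normalized counts in Cal libraries 1, 2 and 3 and 316, 361 and 346 in Con libraries 1, 2 and 3. Each Con library lay above each Cal library. The means of 216 ± 19.8 and 341 ± 23.2 (SD, n = 3 each) were 1.58-fold apart, with a log2 fold change of -0.66 (SE 0.13).

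To set the 3 groups on a single scale, Model values were multiplied by 1.118, the ratio of the shared Cal libraries' size factors between the tables. On that scale Slc7a2 stood at 88.5 in Con, 166 in Cal and 2533 ± 691 in Model, and Gch1 at 197.5, 581 and 1152 ± 300.5 (SD, n = 3). Both therefore rank Con, Cal, Model from lowest to highest, with no overlap between neighbours. Nos2 ranked otherwise, with Cal at 216, Con at 341 and Model at 1186 ± 305, again with no overlap. Model over Con gave log2 fold changes of 4.83 (SE 0.33) for Slc7a2, 2.51 (SE 0.22) for Gch1 and 1.77 (SE 0.21) for Nos2, or 28.6, 5.83 and 3.48 as ratios of means. The order is a description, since the rule used both contrasts. Ass1, Nos3 and Arg1 were not among the genes listed with Con and have no value there.

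**Figure D2:**
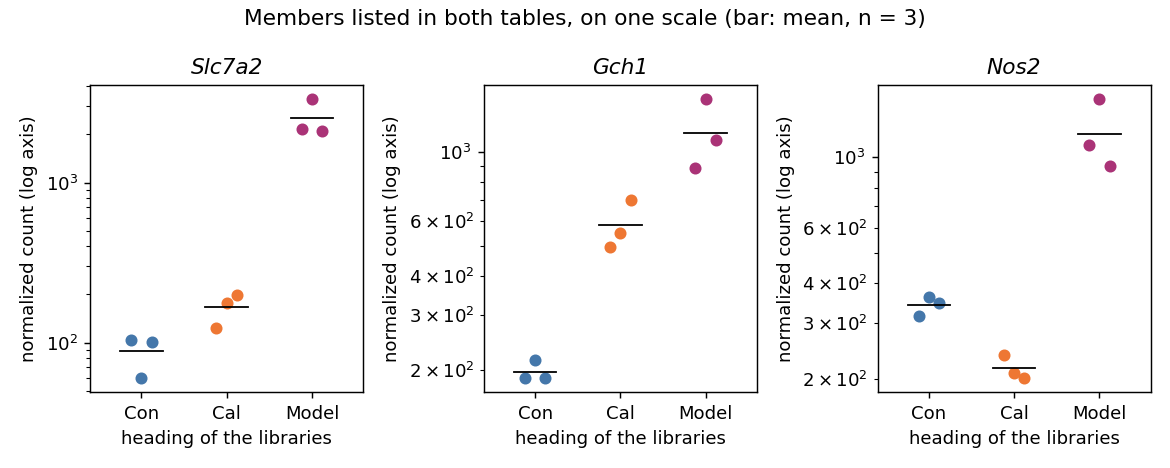
Normalized counts (y axis, log scale) of Slc7a2, Gch1 and Nos2 in the libraries headed Con, Cal and Model (x axis), with Model values brought to the scale of the Cal and Con table. Points are libraries and bars means of 3. Slc7a2 and Gch1 step upward from Con to Cal to Model, whereas Nos2 is lowest in Cal at 200.9 to 238.3 and highest in Model at 941 to 1527.

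The wider pathway was read from 9 lists of 103 genes besides the members. Of these, 44 were listed against Model, of which 12 were called higher in Cal and 17 higher in Model, beside 28.4% and 31.6% of all listed genes called so. Their median log2 fold change was -0.80, and 40.9% were higher in Cal, against 46.0% of all listed genes. Against Con, 31 were listed, with 10 called higher in Cal and 4 higher in Con, beside 18.0% and 10.9% of all listed genes called so. Their median was 0.62, and 74.2% were higher in Cal against 60.7% of all. None of these genes changed direction under the 4 other scalings tried, but 8 of the 29 calls against Model and 2 of the 14 against Con were lost under at least 1 of them. Of the genes not called, 6 of 15 against Model and 4 of 17 against Con were called under at least 1. These scalings were computed from the listed genes alone, which were selected for differing, so few unchanged genes anchor them. With the authors' size factors, edgeR and DESeq2 each gave 29 calls against Model and 14 against Con. The lists below are small, and their counts are given as a description beside those shares of all genes.

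Arginine transport beyond Slc7a2 differed less. Slc3a2, the heavy chain that partners several amino acid transporters, was called higher in Model, with 1476 against 544 normalized counts and a log2 fold change of -1.41, which became -0.99 and lost the call under 1 of the 4 other scalings. Slc7a6, which exchanges arginine across the membrane, had -0.75 and was not called. Against Con, Slc7a1, the widespread arginine carrier CAT1, had 0.62 and Slc7a7 had 0.70, and neither was called.

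Among the partners of the synthases, 3 of 5 listed genes were called against Model, where 60.1% of all listed genes were. Cav1, the caveolar protein that binds and restrains the endothelial synthase, was higher in Cal at 3439 against 437 normalized counts, a log2 fold change of 3.06. Nostrin, which moves the endothelial synthase away from the membrane, was higher in Cal with 2.06. Nos1ap, an adaptor of the neuronal synthase, was higher in Model with -1.15. The Nos1ap call held under only 1 of the 4 other scalings, with -0.84 as the value nearest 0. Akt1, a kinase that activates the endothelial synthase, had 0.46 and was not called, though it was under 1 of the 4 other scalings, with 1.08 as its highest value. Against Con, Cav1 had -0.82 and Cav3 0.51, and 0 of 2 were called, though Cav1 was called lower in Cal under all 4 other scalings.

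For the cofactor, 0 of 7 other tetrahydrobiopterin genes were listed in the Cal and Model table, where Gch1 stood alone. Against Con, Spr, which completes tetrahydrobiopterin, had 0.44 and Qdpr, which regenerates it, had 0.36, and neither was called. Of the 4 other genes of citrulline recycling and the urea cycle, 0 were listed in either table.

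Of all genes listed against Model, 54.0% were higher in Model and 31.6% were called so. Among genes of arginine, ornithine and polyamine metabolism outside nitric oxide synthesis, 5 of 6 listed were higher in Model, 3 of them called. These were Srm, which makes spermidine, at -1.21, Aldh18a1, which starts proline and ornithine synthesis from glutamate, at -1.14, and Sat1, which acetylates polyamines for export, at -1.07. Of the 4 other scalings, Srm was called under 2, Aldh18a1 under 1 and Sat1 under 0. The values nearest 0 were -0.91 for Srm, -0.84 for Aldh18a1 and -0.69 for Sat1. Gatm, which makes the creatine precursor from arginine, was called higher in Cal at 1.44. Against Con, 4 of 4 listed genes were higher in Cal and 0 were called. Of the methylarginine genes, Ddah2, which breaks down the synthase inhibitor dimethylarginine, was called higher in Cal at 1.94. Prmt6, an arginine methyltransferase, was called higher in Model at -1.05. That call held under only 1 of the 4 other scalings, with -0.76 as the value nearest 0.

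Downstream, 9 genes of the nitric oxide receptor and cyclic GMP were listed against Model, 4 called higher in Cal and 2 higher in Model, 6 of 9 beside 60.1% of all listed genes. Gucy1a2, a subunit of the receptor guanylate cyclase, had 3.10 from 44.1 against 5.20 normalized counts, and Pde5a, which degrades cyclic GMP, had 1.80. Vasp, a substrate of the cyclic GMP kinase, had 1.17, while the phosphodiesterases Pde1a and Pde1b had -1.77 and -1.12. The Pde1b call held under only 1 of the 4 other scalings, with -0.83 as the value nearest 0. Against Con, Gucy1a1, the other alpha subunit, was the 1 of 5 called, lower in Cal at -1.15.

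The inducers of Nos2 and the genes of their signalling did not all differ as Nos2 did. Against Model, 13 of 19 were listed and 7 were called higher in Model, beside 31.6% of all listed genes, among them Hif1a, the hypoxia factor, at -2.30 and Irf8, an interferon regulatory factor, at -1.98. The cytokines Tnf and Il1b were called higher in Cal, at 2.04 and 2.02. Against Con, 10 of 10 listed genes of this list were higher in Cal and 9 were called, beside 18.0% of all listed genes. They were led by Il1b at 6.55, Tnf at 5.79 and Irf1 at 3.76, while Nos2 itself was lower in Cal. Il1b went from 18.6 normalized counts in Con to 1609 in Cal in that table. The list also holds Nfkbia, which encodes an inhibitor of NF-kB and so restrains Nos2 induction, called higher in Cal at 2.61. Of the calls against Con, Myd88 at 1.21 held under 0 and Nfkb1 at 1.25 under 1 of the 4 other scalings.

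Among regulators of Nos3, the receptor of vascular growth factor, Kdr, and its ligand Vegfa were called higher in Cal than in Model, at 1.44 and 1.27. Edn1, the vasoconstrictor endothelin, was called higher in Model at -2.56, as was Klf2, a flow-responsive factor that drives Nos3, at -1.12, although Klf2 was called under none of the 4 other scalings, with -0.79 as its value nearest 0. Against Con, Klf4 at -2.00, Klf2 at -1.81 and Kdr at -1.09 were called lower in Cal, and the bradykinin receptor Bdkrb2 higher at 1.54.

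**Figure D3:**
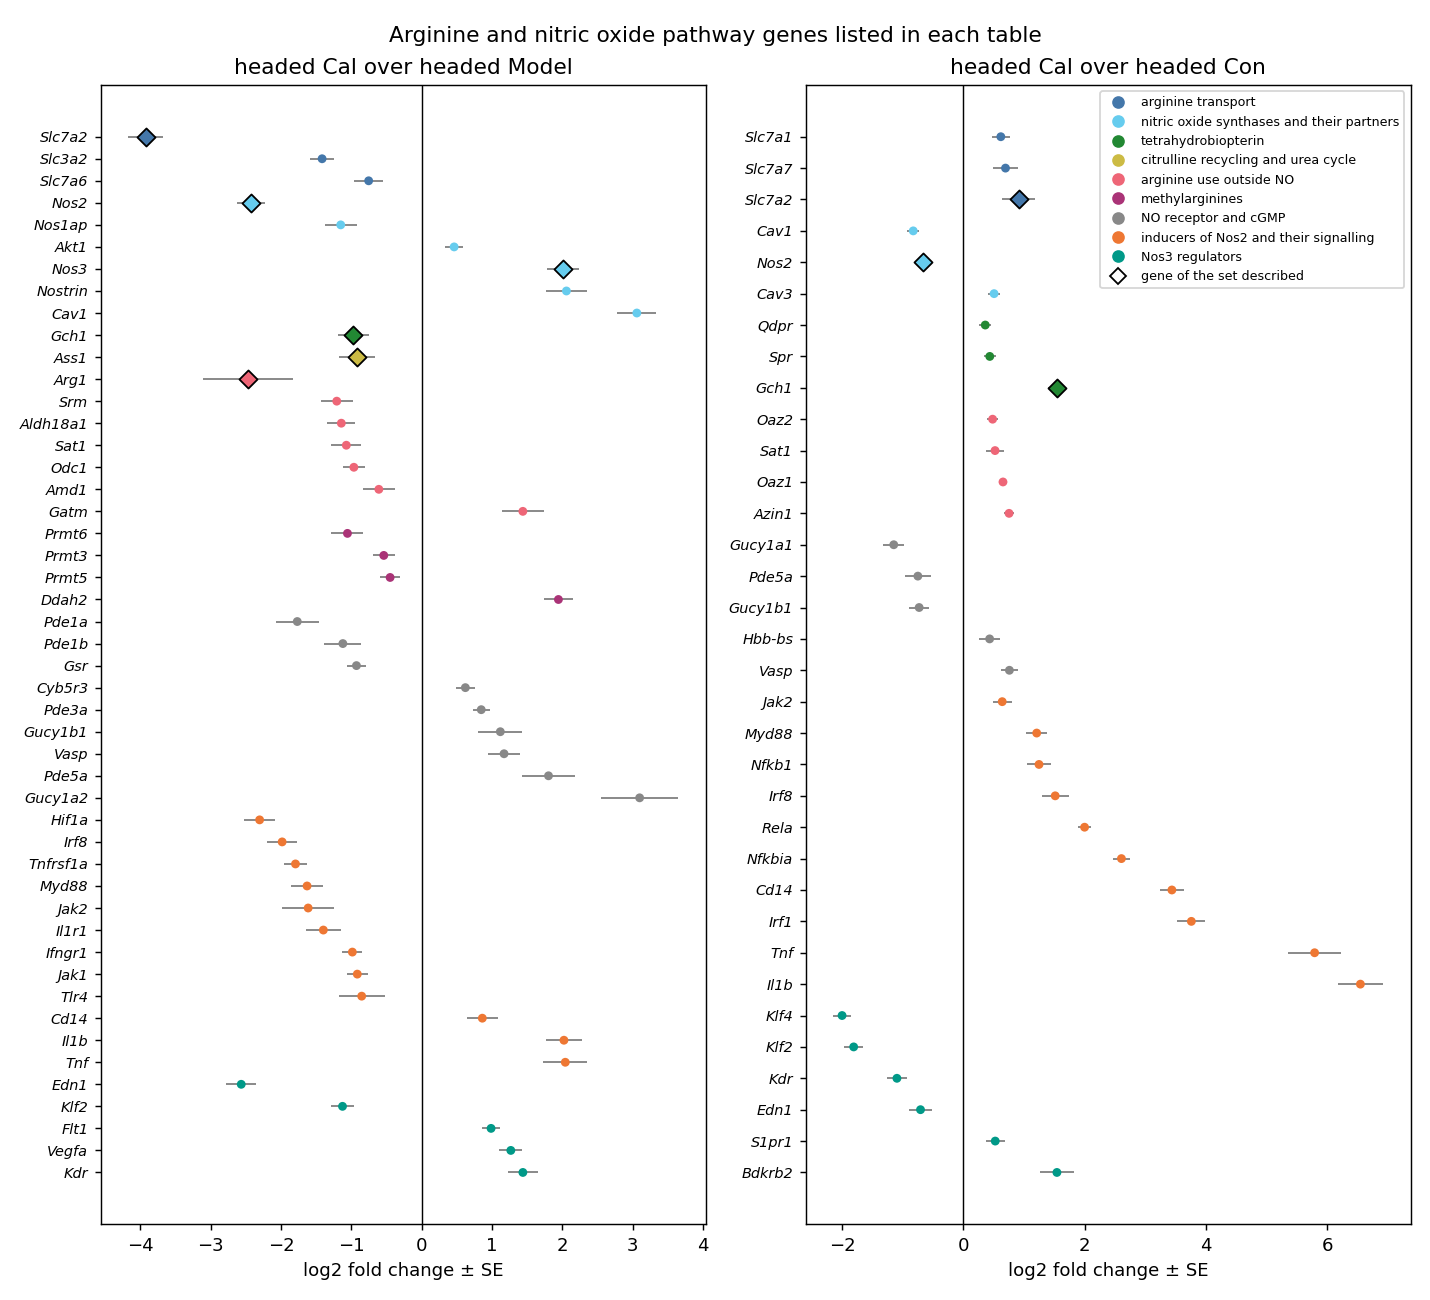
Log2 fold change ± SE (x axis) of listed pathway genes (y axis), Cal over Model on the left and Cal over Con on the right, coloured by list, with diamonds for the 6 members. On the left Slc7a2 at -3.92 lies farthest to the side of Model and Gucy1a2 at 3.10 farthest to the side of Cal, and on the right all 10 genes of the Nos2 inducer and signalling list lie above 0.

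The listed endothelial markers were higher in Cal than in Model, as Nos3 was. Of 12 endothelial markers, 8 were listed against Model and 8 of these were higher in Cal. Their summed level was 12512 to 14885 normalized counts in Cal and 5063 to 6770 in Model, 2.35-fold apart. Only markers that already differed could be listed, so the sum, its fold and the Nos3 share rest on selected genes. Cdh5, Eng and Esam, at 4175, 3542 and 1669 in Cal in the Cal and Con table, were not listed against Model. Nos3 as a share of that sum was 4.11, 4.76 and 3.95% in Cal libraries 1, 2 and 3 and 2.30, 2.22 and 3.03% in Model libraries 1, 2 and 3. The mean shares were 4.27 ± 0.428% and 2.51 ± 0.448% (SD, n = 3 each). The 3.91-fold difference of Nos3 lay within the range of the single endothelial markers, toward its upper end. Tek at 4.19-fold, Egfl7 at 4.30-fold and Cldn5 at 4.37-fold differed more. Kdr at 2.75-fold, Pecam1 at 2.41-fold, Vwf at 1.89-fold and Emcn at 1.87-fold differed less. Tie1 differed least, with means of 2088 normalized counts in Cal and 1392 in Model. For Vwf the groups overlapped.

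Beside Slc7a2 and Nos2, neutrophil markers were higher in Model for 9 of 9 listed of 11, with a sum of 1053 to 1107 in Model against 84.9 to 249 in Cal, where Mpo was at 0 in all 3 libraries. Macrophage and monocyte markers went mainly the other way, with 8 of the 11 listed of 15 higher in Cal and a sum of 8837 to 9991 in Cal against 3937 to 5492 in Model. Ccr2, Itgam and Fcgr1 were the 3 higher in Model. These sums too hold only markers that passed the listing. The part of any of these cell types in the member differences was not tested.

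Of the other markers against Model, 2 of 10 T and NK cell genes were listed, both higher in Model. The fibroblast sum from 4 of 9 genes overlapped between the groups, at 17378 to 21126 in Cal and 15696 to 22941 in Model. Its genes differed in opposite directions, each without overlap. Col1a1, Col1a2 and Col3a1 were higher in Cal, and the abundant Dcn was higher in Model, at 13976 against 8610. The smooth muscle and pericyte sum from 2 of 7 genes was 3194 to 3440 in Cal and 2079 to 2306 in Model. Against Con, the endothelial sum from 9 of 12 genes was 19083 to 21498 in Cal and 26871 to 31027 in Con. The macrophage and monocyte sum from 4 of 15 genes was 2109 to 2817 in Cal and 1317 to 1448 in Con. That sum follows 1 gene, Cd14, at 1612 in Cal against 146 in Con. The other 3, Mrc1, Cx3cr1 and Ccr2, were lower in Cal. There the neutrophil sum from 2 of 11 genes was 48.5 to 183 in Cal and 13.0 to 28.5 in Con. Heart tissue showed in 5 cardiomyocyte markers of 13 listed with Con, Myh6, Mybpc3, Ryr2, Atp2a2 and Ckm, all 5 higher in Cal, which summed to 665933 to 682671 in Cal and 498836 to 612373 in Con. Against Model, 0 of the 13 were listed, so the Model libraries have no such check here.

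**Figure D4:**
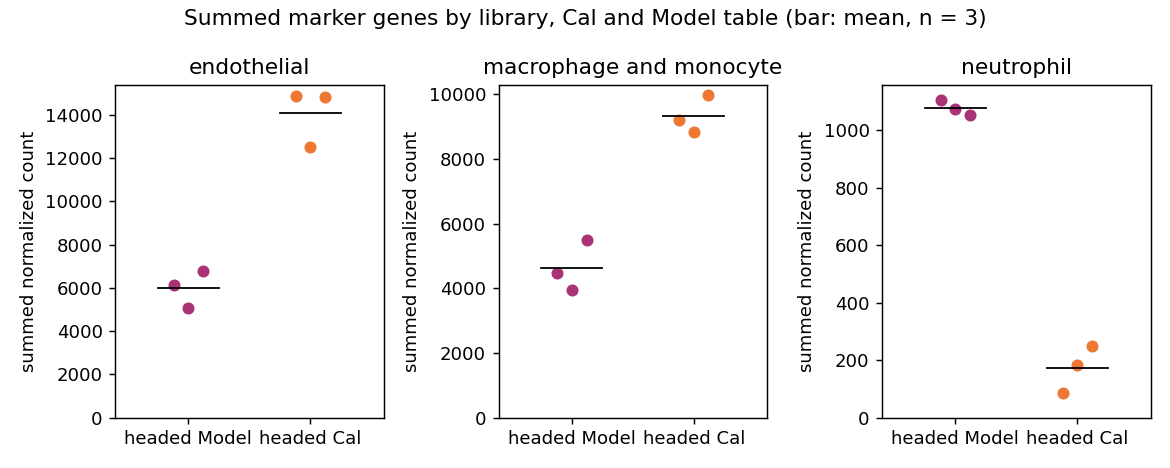
Summed normalized counts (y axis, linear from 0) of the listed endothelial, macrophage and monocyte, and neutrophil markers in each library of the Cal and Model table, by heading (x axis). Points are libraries and bars means of 3. The endothelial sum runs from 12512 to 14885 in Cal and from 5063 to 6770 in Model, and the neutrophil sum from 1053 to 1107 in Model and from 84.9 to 249 in Cal.

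The genes whose levels followed each member most closely were found by Pearson's r on log2(normalized count + 1), as a description. The points share library, depth and listing, and 2 separate groups alone give high values, so 839 of 4090 genes passed r of 0.95 with Slc7a2 over the 6 libraries of the Cal and Model table. The closest there were Slc12a8, Hhat and Tpm3-rs7 for Slc7a2 (r 0.998 for each), Limch1, Sub1 and Gars for Nos2 (0.999 each), and Abcb9, Tspan9 and Gdpd5 for Nos3 (1.00, 0.999 and 0.999). For Gch1 they were Taf4b, Ifit1bl1 and Asb13 (0.997, 0.995 and 0.994), and for Ass1 Gm3667, Sall2 and Atp9b (0.987, 0.987 and 0.985). For Arg1 they were Snapc4, Nnmt and Gstcd (0.984, 0.977 and 0.976), with 15 genes over 0.95.

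Over the 6 libraries of the Cal and Con table the closest to Slc7a2 were Afg3l1, Nkiras2 and Pex19 (r 0.994, 0.994 and 0.992), to Gch1 Serf2, Lcp2 and Zbtb21 (0.999, 0.999 and 0.997), and to Nos2 Id1, Sox17 and Calcrl (1.00, 0.999 and 0.998). Over all 9 libraries on the single scale the points fall in 3 groups and 981 genes could be compared. There Slc7a2 lay closest to Susd6, Gprc5b and the amino acid transporter Slc7a5 (0.997, 0.993 and 0.992), with 95 genes over 0.95. Gch1 lay closest to Tifa, Il1rn and Gna13 (0.993, 0.992 and 0.991), with 129 over 0.95, and Nos2 to Edn1, Serpinb9 and Cpne8 (0.996, 0.991 and 0.990), with 20.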

How the data were processed

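RNA from 9 rat hearts was poly-T selected, prepared with a TruSeq kit and sequenced paired-end on a HiSeq4000, per the labels. The submitters' processing notes name Bowtie 0.12.2 and the mouse builds mm8 and mm9, without roles, and the tables carry mouse gene identifiers. The deposited signal values are read counts per gene that the authors divided by DESeq2 size factors, separately in each of 2 tables, which list only genes below the authors' adjusted p of 0.05. Columns with the authors' own log2 fold changes, p-values and adjusted p-values were not used. Whole reads were recovered for 100% of values within 0.01 of a read, 2860826 to 4659882 reads per library on listed genes, with size factors of 0.820 to 1.17. The full depth is unknown.

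Groups followed the sample column headings, and limma 3.58.1 was fitted on log2(normalized count + 1) within each table, with Benjamini-Hochberg adjustment over all its genes. No filter was applied. Alternatives were edgeR 4.0.16 and DESeq2 1.42.0 on recovered reads, other pseudocounts and scalings, a filter at a mean of 10, a replicate block and leaving out each library. The scripts were tested on simulated data. Replicates differed by more than counting noise, with a chi-square per degree of freedom of 10.9 to 80.7. An exact permutation test of 3 against 3 cannot go below p = 0.1, so none was run.

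Members, gene lists and markers were chosen with earlier results of these data known. Named genes were the members, up to 3 called genes each way per list and table, and the 3 closest by r. Some genes of the lists are counted but not reported here by name. Promoters are rat RefSeq sequences of GRCr8, not of the tables' mouse annotation.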

Additional observations from a re-analysis of the deposited data

How the results depend on the processing

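Of 281 values recomputed under alternatives for 18 results, 0 changed direction, 26 were marked as moved and 255 were not. Values not so marked could still shift. Gch1 against Model went from -0.97 to -0.67 under median-ratio scaling, and Slc7a2 against Con from 0.91 to 0.62 under DESeq2. Without the fold limit, called genes rose to 44 and 31 of the pathway lists (against Model and Con), 4272 and 2454 of all genes, and 3 members against Con. Against Model, the log2 fold change was -0.59 for Gch1 under quantile normalization, -0.63 and -0.62 for Ass1 under median-ratio scaling and DESeq2 but -1.17 under quantile normalization, which made it the fifth called member, -2.13 and -2.15 for Nos2 under the same pair, and -3.80 and -0.89 for Arg1 with 0.1 and 10 added. Against Con, under quantile, median-ratio, edgeR TMM and DESeq2 scaling in turn, Gch1 gave 1.28, 1.26, 1.32 and 1.27 and Nos2 -0.86, -0.94, -0.89 and -0.94. The Model over Con values under quantile normalization were 4.30 for Slc7a2, 2.06 for Gch1 and 1.28 for Nos2. These scalings, computed from the listed genes alone, move the median of all genes by 0.20 to 0.42 against Model and by -0.42 to -0.24 against Con. Calls higher in Cal were 47.3% of all calls against Model and between 54.2 and 61.1% under them, and against Con 62.2% and between 43.3 and 47.3%. Leaving out each library in turn, 4 to 5 members were called against Model (Gch1 joined without Model library 1 or Cal library 3, Ass1 without Cal library 1) and 1 to 2 against Con. Arg1 was not called with 10 added, nor tested with the filter at a mean of 10, which leaves 3 called members. The edgeR and DESeq2 fits with the authors' size factors were chosen after seeing the data. Same-numbered libraries did not deviate together (correlations of -0.13 to 0.12 against Model and -0.13 to -0.04 against Con), so the numbers do not pair them, and the replicate block gave 4 and 1 members called, 29 and 14 pathway genes and 2574 and 713 of all genes, as against 2575 and 712. The depth limits Arg1 most, and Ass1 next.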
